A study of Mus musculus with 2 samples.

Results

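The cells described here are J558 tumor cells of a vehicle-treated allograft that carried the fewest transcripts of 4 genes of the G2 phase and mitosis. They were chosen by measured values of the vehicle library in 2 steps. A barcode was taken as a tumor cell if it had over 2000 genes, under 15% of its unique molecular identifiers (UMIs, each marking 1 captured transcript) in mitochondrial genes, at least 3 UMIs of Trap1a, and at most 2 UMIs of Cd3e, Cd3g, Csf1r, Cdh5 and Col1a1 together. Each of these cells was then scored by its UMIs of Top2a, Mki67, Cenpf and Cdk1 per 10000 of its UMIs, and the 748 cells at or below the 25th percentile, of 2992 tumor cells in that library and 11123 barcodes in the series, are called low-score members. They were compared with the 1496 cells between the 25th and 75th percentiles, called middle-score cells, and the 748 cells above are called high-score cells.

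J558 is a mouse plasmacytoma line that secretes an immunoglobulin, and the labels call it a B lymphocyte line. It was grown under the skin of female BALB/c mice, immunocompetent hosts in which other cells of the tumor come from the mouse. One group received 0.5% methylcellulose by mouth as vehicle and the other TAK-931, an inhibitor of the replication kinase CDC7, at 60 mg/kg once daily, both for 6 days. There was 1 library per group, so no spread between animals could be measured, no value below carries a p-value, and all intervals (95%) cover counting error only. Cells of 1 library are not replicates.

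A plasma cell makes large amounts of 1 antibody, which is threaded into the endoplasmic reticulum (ER), folded by chaperones such as Hspa5 and passed to the Golgi. Normal plasma cells have left the cell cycle, while plasmacytoma cells divide. A dividing cell licenses replication origins with the MCM complex in G1, copies its DNA with PCNA, ribonucleotide reductase and new histones in S phase, and then makes the genes of G2 and mitosis, such as Cdk1, Top2a and the cyclins.

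Sequencing depth was 144767193 UMIs over 4565 barcodes with vehicle (median 34151 per barcode) and 77369283 UMIs over 6558 barcodes with TAK-931 (median 8156). Only 92 TAK-931 barcodes passed as tumor cells. The libraries shared 8 barcode sequences, of which 1 belonged to a low-score member.

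Promoter sequences are shown first, because cell cycle genes fall into classes by the motifs at their starts. The cell cycle homology region (CHR, TTTGAA) is known from promoters of G2 and mitosis genes, the E2F site (searched as TTTCCCGC, TTTCGCGC, TTTGCCGC and TTTGGCGC) from promoters of S phase genes, CCAAT boxes from many of both, and the ER stress element (a CCAAT and a CCACG at a fixed distance, so that each match contains a CCAAT) from promoters of ER chaperones. All were searched on both strands in RefSeq windows (GRCm38.p6) of 300 bases, most of them before the start of transcription. The windows below are the 100 bases before the start, 5′ to 3′ on the strand of the gene, and capitals mark the CHR, E2F, CCAAT or ER stress element matches. Ckap2l, Ube2c and Kif11 were the genes of the G2/M list with the lowest ratios whose 100 bases held a CHR. Genes on a chromosome left out of this choice were not considered. Dtl, Hells and Mcm6 were chosen in the same way for the E2F site in the S phase list. Hspa5 is shown as a secretory gene.
Ckap2l (chr2:129297213-129297312, minus strand): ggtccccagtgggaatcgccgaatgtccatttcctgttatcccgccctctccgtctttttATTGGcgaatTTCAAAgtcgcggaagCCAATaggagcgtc
Ube2c (chr2:164769829-164769928, plus strand): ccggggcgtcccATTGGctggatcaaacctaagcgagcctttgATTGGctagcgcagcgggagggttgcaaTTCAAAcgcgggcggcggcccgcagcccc
Kif11 (chr19:37376282-37376381, plus strand): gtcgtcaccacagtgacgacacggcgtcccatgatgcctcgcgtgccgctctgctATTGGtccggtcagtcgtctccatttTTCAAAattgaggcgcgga
Dtl (chr1:191575545-191575644, minus strand): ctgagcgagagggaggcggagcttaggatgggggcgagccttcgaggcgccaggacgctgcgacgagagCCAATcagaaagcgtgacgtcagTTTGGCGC
Hells (chr19:38930890-38930989, plus strand): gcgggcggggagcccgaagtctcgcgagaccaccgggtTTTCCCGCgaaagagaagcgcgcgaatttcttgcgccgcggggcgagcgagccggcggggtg
Mcm6 (chr1:128359706-128359805, minus strand): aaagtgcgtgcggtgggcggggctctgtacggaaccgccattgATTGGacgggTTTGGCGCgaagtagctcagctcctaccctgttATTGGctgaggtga
Hspa5 (chr2:34771990-34772089, plus strand): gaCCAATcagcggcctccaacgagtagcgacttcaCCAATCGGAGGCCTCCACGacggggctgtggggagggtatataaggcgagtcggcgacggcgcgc

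The CHR letters stood in 31 of 50 windows of the G2/M list (62.0%, 45 of 54 genes matched) and in 6 of 34 windows of the S phase list (17.6%, 31 of 44 genes matched), with 8 of 25 windows of the G1/S and licensing list between them (32.0%), against 17.9% of all 32851 windows. The E2F letters stood in 12 windows of the S phase list (35.3%), in 11 of 25 windows of the G1/S and licensing list (44.0%, 20 of 23 genes matched) and in 2 windows of the G2/M list (4.00%), against 2.26% of all windows. CCAAT was in 74.0% of windows of the G2/M list, 67.6% of the S phase list and 68.9% of the ER translocation and folding list, against 37.4% of all. The ER stress element was in 7 of 45 windows of the ER translocation and folding list (15.6%, 38 of 50 genes matched) and in 39 windows of all (0.119%). These matches describe letters in the windows and were not tied to binding.

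By the rule, the score was at most 0.777 in the low-score members, with a median of 0.311 against 2.72 in middle-score and 11.6 in high-score cells. These medians rested on 1, 10 and 65 UMIs of the 4 genes per cell, and 221 members had none. The cut did not fall in a gap. Within 0.1 of it lay 82 members and 75 non-members, and their median S phase UMIs, 9.59 and 9.86 per 10000, were close to each other. The 4 genes themselves, summed over cells and given as counts per 1e6 UMIs of the group (CPM), were at 0.982 CPM in members and 32.2 in middle-score cells for Cenpf (a kinetochore protein), 4.83 and 108 for Top2a (the topoisomerase that untangles chromosomes), 2.42 and 46.2 for Cdk1 (the kinase that starts mitosis) and 26.3 and 201 for Mki67 (the Ki-67 antigen). All 4 chose the cells, so these values are the cut and not a result.

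**Figure D1:**
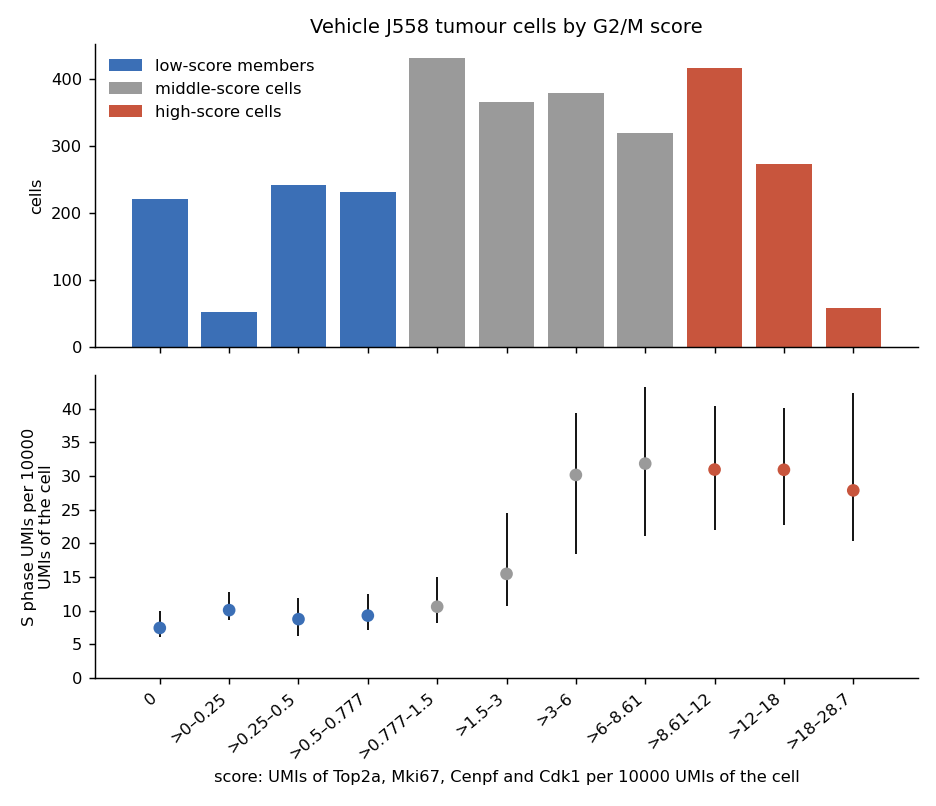
Upper panel, number of vehicle tumor cells in bins of the score, which have unequal widths. Lower panel, median UMIs of the S phase list per 10000 UMIs of the cell (points) with the 25th to 75th percentiles (lines). The S phase median lies between 7.43 and 10.1 in the 4 bins of members and reaches 30.1 in the bin above 3.

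The label of tumor cells was checked against 4 markers, of which Trap1a was used by the gate, so its abundance was set by the rule. Trap1a, a tumor antigen gene, was at 1558 CPM in members and 1499 in middle-score cells, and it ranged from 264 to 5270 CPM over single members around a median of 1479. Rhox5, a homeobox gene active in many mouse tumor lines, was at 599 and 585 CPM. Mzb1, an ER chaperone of B and plasma cells, was at 1074 and 1001 CPM. Jchain, which joins polymeric antibodies, was at 2481 CPM in members and 3023 in middle-score cells, a log2 ratio of -0.29 (-0.30 to -0.27). Rhox5, Mzb1 and Jchain, which the gate did not use, were thus abundant in the members, with log2 ratios between -0.29 and 0.10. Cd79a and Pax5, genes of B cells before the plasma cell stage, had too few UMIs to be compared. Cd79b, a part of the B cell receptor, was present, at 164 CPM in members and 128 in middle-score cells.

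The members held fewer transcripts per cell. Their UMIs per cell had a median of 34820 (10th to 90th percentile 24420.5 to 47387.3), against 41322.5 (26644 to 62068.5) in middle-score and 54579 in high-score cells, so the members' median was 84.3% of that of middle-score cells. With every cell thinned to 20000 UMIs, which left out 45, 95 and 15 cells that were shallower, the median number of genes was still 3595 in members, 3761 in middle-score and 3994 in high-score cells (4651.5, 5215 and 6080 before thinning). The 221 members without a UMI of the score genes were shallower again, with a median of 29773 UMIs against 36587 in the others. The rule reads a share near 0 more often from a shallow cell, and depth differed between the groups. Values from cells within 1 range of total UMIs are given at the end, and values with the score taken from thinned counts are given with the alternatives. Mitochondrial transcripts made up a median of 5.86% of UMIs in members and 5.20% in middle-score cells, and transcripts of ribosomal proteins 29.5% and 27.6%.

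All genes with at least 200 UMIs in members and middle-score cells together were compared, 9499 without the 4 score genes. A gene was called at a ratio of at least 1.5-fold between the summed CPM. By that rule 68 genes were higher in members (0.716%) and 651 lower (6.85%), and the median log2 ratio of all genes was -0.07, with 6019 of 9499 below 0. The higher count was 117 with ratios centred on that median, 127 with the score from other genes of G2/M, 124 with the lowest 10% of the score as members and 146 against all other tumor cells. It was 10 at a minimum of 1000 UMIs and 600 at 20, where the lower count was 337 and 1134, and against all other tumor cells the lower count was 1004. Of the 651 lower genes, 155 were at least 4-fold lower, and 112 belonged to the cell cycle lists. The same cells were divided on 4 cell cycle genes, so the counts below describe what went with the score and test nothing. As few of all genes were called, a short list with none called is not set apart from them by that count. The gene lists are given in the order of the cell cycle, then secretion, then stress.

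**Figure D2:**
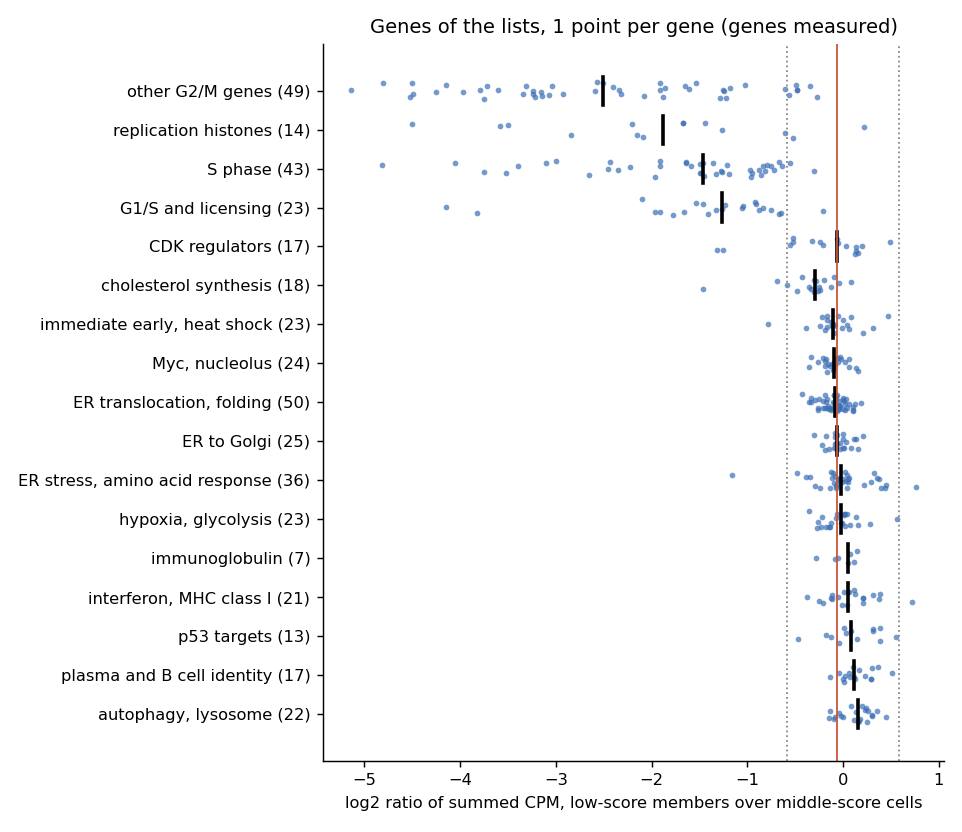
Log2 ratio of summed CPM in low-score members over middle-score cells for each measured gene of 17 lists (points, with random vertical spread), with the list median (black bar), the median of all genes (red line) and the 1.5-fold bounds (dotted lines). The G2/M, replication histone, S phase and licensing lists lie far to the left, and the other lists lie mostly between the dotted lines.

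The other genes of G2 and mitosis, which the score did not use, were lower in members in 49 of 49 measured, 43 of them by at least 1.5-fold, with a median log2 ratio of -2.51. Nusap1, a spindle protein, was at 1.62 CPM in members, 36.5 in middle-score and 144 in high-score cells. Ccna2, the cyclin of S and G2 phase, was at 1.59, 32.2 and 96.0 CPM. Plk1, a mitotic kinase, was at 0.415 against 14.6 CPM, which rests on 11 UMIs over all members. Ube2c, which works with the anaphase-promoting complex to destroy cyclins, was at 9.74 CPM in members and 372 in high-score cells, and Birc5 (survivin, a part of the chromosomal passenger complex) at 7.17 against 87.0 CPM. The levels of all 5 were thus over 10-fold lower in members than in middle-score cells, and Nusap1 and Ccna2 went on to increase from middle-score to high-score cells. Among the 12 named genes furthest down, Hmmr, a spindle-associated protein, and Fbxo5, an inhibitor of the anaphase-promoting complex, had log2 ratios of -4.25 and -4.23. Cenpe, a kinetochore motor, and Pclaf, a partner of PCNA, had ratios of -3.72 and -3.37. From middle-score to high-score cells Hmmr rose from 35.2 to 126 CPM, and Fbxo5 only from 36.1 to 52.3 CPM. Other genes of the G2/M list were nearer to level. Kif23, a motor protein of cell division, was at 19.9 against 24.1 CPM, and Anp32e, a histone chaperone, at 492 against 688 CPM.

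S phase genes were lower in 43 of 43 measured, 41 of them by at least 1.5-fold, with a median log2 ratio of -1.47 and ratios from -4.82 (E2f8) to -0.31 (Ubr7). Summed over the list they took 959 CPM in members, 2353 in middle-score and 3152 in high-score cells. Rrm2, a subunit of ribonucleotide reductase, was at 10.4 CPM in members and 141 in middle-score cells, a log2 ratio of -3.75 (-3.93 to -3.58), and its median over single members was 0 against 52.0 CPM. Clspn, which relays the replication checkpoint, was at 2.91 against 48.3 CPM. Pcna, the sliding clamp of DNA polymerases, was at 72.1 against 181 CPM (log2 -1.33, -1.40 to -1.26), and its values over single cells overlapped, with medians of 59.4 and 131 CPM and 90th percentiles of 146 and 370. Mcm6, a subunit of the replicative helicase, was among the least different, at 95.3 against 151 CPM (log2 -0.67, -0.73 to -0.60). S phase genes were therefore not all low to the same degree, and Mcm6 kept more of its level than Rrm2 and Clspn.

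The genes of G1/S and origin licensing were lower in 23 of 23, 22 of them by at least 1.5-fold, with a median log2 ratio of -1.26. The list shares Mcm2, Mcm4, Mcm6 and other genes with the S phase list. Mcm10, which joins when origins fire, was at 1.13 against 20.1 CPM, and Cdc6, which loads the helicase, at 8.99 against 33.8 CPM. Mcm2 and Mcm4 were at log2 ratios of -0.84 and -0.75. E2f2, a transcription factor of the G1/S step, was at 27.6 against 31.9 CPM, the smallest difference of the list.

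Replication histones were lower by at least 1.5-fold in 12 of 14. Most mRNAs of these genes lack a poly(A) tail, which the 3′ chemistry needs, so their levels here are a part of what a cell holds, and near-identical copies share reads. Hist1h1b, a linker histone, was at 4.12 CPM in members, 93.3 in middle-score and 209 in high-score cells, and 9.17% of its members' UMIs came from 1 cell. Hist1h2ap was at 15.2, 171 and 343 CPM. Hist1h2bc went the other way, at 89.9 CPM in members, 77.1 in middle-score and 56.7 in high-score cells.

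Regulators of the cyclin-dependent kinases were near level, with a median log2 ratio of -0.06 over 17 genes and 2 lower by at least 1.5-fold, Rbl1 and Cdkn3. Among the inhibitors, Cdkn1a (21.0 against 20.6 CPM), Cdkn1b (24.6 against 22.5), Cdkn2a (302 against 276) and Cdkn2b (21.9 against 19.1) were level or above, with a highest log2 ratio of 0.20 (0.05 to 0.34) for Cdkn2b. Cdkn2c (7.25 against 8.38 CPM, log2 -0.21) and Cdkn2d (7.51 against 10.8 CPM, log2 -0.53) were below. Btg2, an antiproliferative gene, was at 673 against 605 CPM. Ccnd1 and Cdk6 had too few UMIs to be compared. Cdk4, the G1 kinase, was at 128 against 160 CPM. None of these 6 inhibitors differed by 1.5-fold, as was true of most genes compared.

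**Figure D3:**
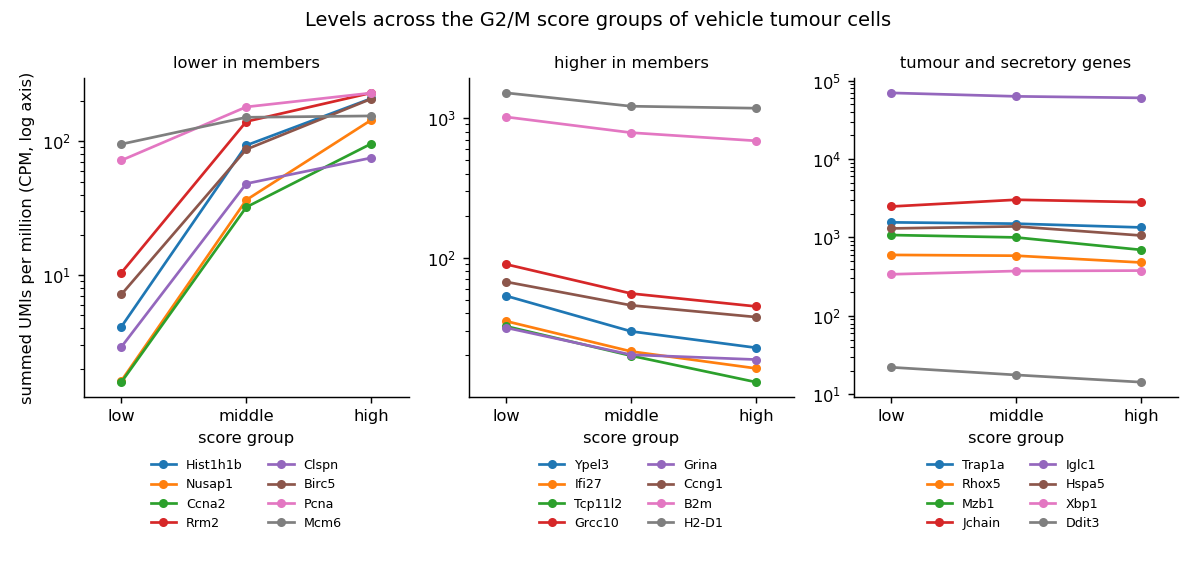
Summed CPM (log axis) in low-score members, middle-score and high-score cells for 8 genes lower in members, 8 genes higher in members and 8 tumor and secretory genes. Rrm2 goes from 10.4 to 141 CPM between low and middle, while Trap1a stays at 1558 and 1499 CPM.

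Secretory genes were near level between the groups, in contrast to the cell cycle genes. Immunoglobulin transcripts took a median of 11.7% of a member's UMIs, 11.2% in middle-score and 10.8% in high-score cells. None of the 7 genes measured reached 1.5-fold, beside 0.716% of all genes higher and 6.85% lower. Iglc1, the lambda light chain, was at 69592 CPM in members and 62857 in middle-score cells, with single members between 602 and 195788 CPM, and near-identical Iglc copies share reads. Igha, the alpha heavy chain, was at 9649 and 9196 CPM. Of the 7, 3 were lower in members, among them Jchain, as given above, and Iglc3, at 33974 against 35327 CPM.

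Of 50 genes for ER translocation and folding, none reached 1.5-fold in either direction, with a median log2 ratio of -0.08, close to that of all genes. Summed, they took 19301 CPM in members, 20522 in middle-score and 17714 in high-score cells, so that their level was highest in the middle. Hspa5 was at 1303 against 1383 CPM, and its medians over single cells, 1137 and 1140 CPM, were nearly equal. Hsp90b1, an ER chaperone of the Hsp90 family, was at 2074 against 2461 CPM, a log2 ratio of -0.25 (-0.26 to -0.23). The lowest ratios were those of Sdf2l1 (-0.43, 148 against 200 CPM) and Creld2 (-0.36, 192 against 246 CPM), both ER proteins made under folding stress, and the highest was that of Srpr (0.18, 209 against 184 CPM), the receptor of the signal recognition particle. Over bins of the score, the list's median was 181 UMIs per 10000 in members without a UMI of the score genes, 217 in cells with a score above 1.5 and up to 3, and 152 in the 58 cells above 18. None of the 25 genes of transport from ER to Golgi reached 1.5-fold either, with Lman1, a cargo receptor, at 675 against 765 CPM.

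Genes of the ER stress and amino acid response gave a median log2 ratio of -0.03 over 36 genes, with 1 gene called in each direction. Psat1, an enzyme of serine synthesis, was at 48.8 CPM in members, 109 in middle-score and 156 in high-score cells, a log2 ratio of -1.16 (-1.25 to -1.08). Nupr1, a stress-induced nuclear protein, was at 10.6 against 6.25 CPM, a log2 ratio of 0.76 (0.54 to 0.99). Below 1.5-fold, Dnajb9, an ER co-chaperone, was at 153 against 116 CPM and Ddit3 (CHOP) at 22.1 against 17.7 CPM, while the one-carbon enzymes Mthfd2 and Shmt2 had log2 ratios of -0.34 and -0.30. Xbp1, the transcription factor of the secretory program, was at 339 against 373 CPM, and Atf4 at 254 against 274 CPM. The list as a whole was near level while single members of it lay on both sides.

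Cell stress genes of other kinds also lay near level. In the immediate early and heat shock list 1 of 23 genes, Egr1, was lower by at least 1.5-fold (4.04 against 6.93 CPM), and 22.4% of its members' UMIs came from 1 cell. Junb, a part of AP-1, had a log2 ratio of 0.47 (184 against 133 CPM), Fos one of -0.17, and Hspa8, a constitutive chaperone, one of -0.39 (1847 against 2422 CPM). None of 23 hypoxia and glycolysis genes, 13 p53 targets or 24 Myc and nucleolar genes reached 1.5-fold. Of all genes 0.716% were higher and 6.85% lower by that bound. Of the p53 targets Ccng1 was at 67.1 against 45.6 CPM and Pmaip1 (NOXA) at 69.1 against 96.0 CPM, with ratios on opposite sides.

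The genes higher in members differed less than those lower. Among genes of at least 30 CPM in the group where they were higher, 9 were higher and 185 lower by at least 1.5-fold, and 1 of the 9 was an unnamed gene model. Ypel3, which is known from growth arrest, was at 53.3 CPM in members, 29.7 in middle-score and 22.7 in high-score cells, a log2 ratio of 0.84 (0.74 to 0.94), and its median over single cells was 36.8 against 20.7 CPM. Ifi27, an interferon-stimulated gene, was at 35.1, 21.3 and 16.1 CPM. Tcp11l2 was at 32.3 against 19.9 CPM, Grcc10 at 89.7 against 55.4 CPM and Grina, a membrane protein that guards against ER stress, at 31.5 against 20.2 CPM. Gimap4, Gimap5, Hcst and Ptpn6, genes of lymphocytes, had log2 ratios between 0.56 and 0.61, and Rraga, a GTPase of amino acid sensing, one of 0.56. Of these, Gimap4 and Hcst reached 1.5-fold, and Gimap5, Ptpn6 and Rraga did not. For each of these genes the order of the levels was low, middle, high, except Gimap5, which was at 28.3 CPM in both other groups.

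Tmsb4x (thymosin beta 4) had a log2 ratio of 0.62, but 22.6% of its members' UMIs came from 1 cell. Without the tumor cells that had over 5 UMIs of macrophage and erythroid markers, 48 in all and 17 of them members, its ratio was -1.27, on the other side of level. This exclusion was chosen after the values were seen. The 8 macrophage markers together took 39.3 CPM in members, 19.99 in middle-score and 15.9 in high-score cells, all 8 were detected in each group, and 52.2% of the members' 1040 UMIs lay in 3 cells. The list's median log2 ratio, over the markers with enough UMIs in each case, was 1.19 and turned to -0.22 without those 48 cells, to -0.23 among cells with over 1000 genes and to -0.28 with the score from counts thinned to 20000 UMIs per cell. T and NK cell markers took 0.982, 0.824 and 0.620 CPM, with Trbc2 and Gzmb at 0 in members. Cd3e, also at 0, Cd3g and the macrophage gene Csf1r were limited by the gate. The 4 erythroid markers, haemoglobin genes and Alas2, took 1.66 CPM in members, 24.1 in middle-score and 1.12 in high-score cells. Of the UMIs in middle-score cells 94.1% lay in 3 cells, and only 1 of those cells had over 5.

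The MHC class I genes B2m, H2-D1 and H2-K1 were higher in members, each below the 1.5-fold bound. B2m, the light chain of class I, was at 1018 CPM in members, 786 in middle-score and 687 in high-score cells, a log2 ratio of 0.37 (0.35 to 0.39), and its 10th percentile, median and 90th percentile were 455, 964 and 1645 CPM in members and 324, 731 and 1365 CPM in middle-score cells. H2-D1 was at 1514 against 1215 CPM and H2-K1 at 504 against 438 CPM. Both groups overlapped widely over single cells. The interferon and MHC class I list as a whole had a median log2 ratio of 0.05 over 21 genes, 13 of them higher and 8 lower. Its ratios ran from -0.38 (Irf1) to 0.72 (Ifi27, the 1 gene of the list past 1.5-fold), with Irf7 at 0.39.

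Genes of autophagy and lysosomes had a median log2 ratio of 0.16 over 22 genes and none past 1.5-fold. Sqstm1 (p62, a cargo receptor) was at 121 against 88.4 CPM, Gabarap at 266 against 216 CPM and Map1lc3a at 48.3 against 37.7 CPM. Cholesterol synthesis genes had a median of -0.29 over 18 genes, with 3 lower by at least 1.5-fold, among them Stard4 (2.08 against 5.72 CPM) and Idi1 (16.1 against 26.0 CPM). Genes of plasma and B cell identity had a median of 0.12 over 17 genes, with Prdm1, the plasma cell master regulator, at 113 CPM in both groups and Cd79b, a part of the B cell receptor, at 164 against 128 CPM.

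The members differed among themselves in S phase genes. Only 20 of the 748 members exceeded the median S phase level of middle-score cells. The 187 members with the most S phase UMIs had a median of 14.1 per 10000 and the 374 members with the fewest had 6.44, with medians of 39086 and 32297 UMIs per cell. These cells were ordered by S phase genes, so the S phase values that follow are a description. In the upper cells Mcm6 was at 160 CPM, 106% of the level of middle-score cells, Ung, a uracil glycosylase, at 29.6 CPM (106%) and Mcm2 at 36.4 CPM (99.98%), while Pcna was at 120 CPM (66.4%), Rrm2 at 19.3 CPM (13.8%), Clspn at 7.11 CPM (14.7%) and Hist1h1b, which the ordering did not use, at 8.10 CPM (8.68%). In the lower cells Mcm6 was at 34.4% and Mcm2 at 27.6%. Within the same set of members, Mcm6, Mcm2 and Ung thus stood at the level of middle-score cells while Rrm2, Clspn and Hist1h1b stood far below it.

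Genes outside the S phase list also differed between these members. Of 6103 such genes with enough UMIs, 124 were at least 1.5-fold higher in the upper cells and 18 lower. Ezh2, a histone methyltransferase, was at 37.8 against 16.8 CPM, and Rfc3, a clamp loader subunit, at 36.2 against 15.1 CPM. Of the 18, Ifi27 was at 23.9 against 41.9 CPM and Apoe, which macrophages also express, at 7.39 against 30.7 CPM. Below the 1.5-fold bound, H2-D1 was at 1224 against 1687 CPM, B2m at 863 against 1113 CPM and Junb at 141 against 195 CPM. None of 50 ER translocation and folding genes and none of 6 immunoglobulin genes reached 1.5-fold between them.

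**Figure D4:**
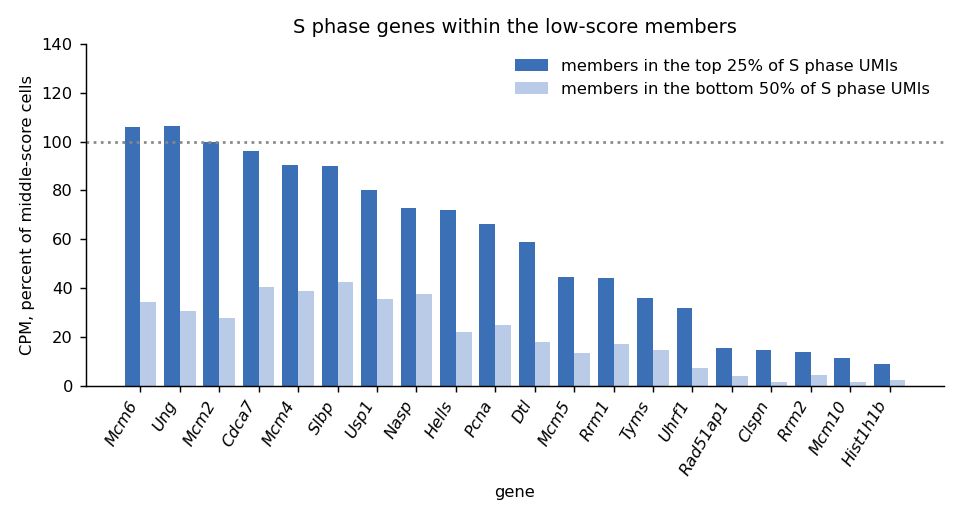
CPM of 20 S phase, licensing and histone genes in members with the most S phase UMIs (187 cells, dark bars) and the fewest (374 cells, light bars), as a percent of middle-score cells (dotted line at 100). Mcm6, Ung and Mcm2 reach the line in the dark bars, and Clspn, Rrm2, Mcm10 and Hist1h1b stay below 20%.

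The spread over members was taken at equal depth, and unnamed gene models and mitochondrial and ribosomal genes are not named here. In 703 members thinned to 20000 UMIs, the variance of a gene's UMIs over its mean had a median of 1.25 over 2219 genes, and it was 189 for Iglc1, 89.8 for Iglc3, 58.5 for Malat1 (a nuclear RNA), 21.9 for Jchain, 18.7 for Herpud1, 15.97 for Hspa8 and 14.6 for Hspa5. Spata7 (21.5) and the actins Actb (16.2) and Actg1 (16.1) lay in the same range. This measure grows with the level of a gene. Relative to the mean, the standard deviation was 36.8% for Iglc1, 66.7% for Jchain, 74.7% for Hspa5, 160% for Herpud1 and 231% for Spata7. Single cells weighed on some of these. In 1 member the ER stress list took 253 UMIs per 10000, against 132 in the next, with Herpud1 at 13479 CPM (389 UMIs), Hspa5 at 15212 CPM and Sqstm1 at 3327 CPM, and with no UMI of Ddit3. The medians of those 3 genes over members were 273, 1137 and 92.6 CPM. That member had 28859 UMIs, 5.77% of them mitochondrial.

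In the TAK-931 library, 11 of the 92 tumor cells (11.96%, exact Clopper-Pearson interval 6.12% to 20.4%) lay at or below the vehicle cut, 59 between the cuts and 22 above. Library and treatment cannot be told apart, and the TAK-931 tumor cells were deeper, with a median of 69393 UMIs. The 11 cells had a median of 41075 UMIs and the 59 cells one of 60446, so depth differed between them too. Macrophage markers took 1109 CPM in the 11 cells, 544 CPM in the 59 (7 of 7 measured genes higher in the 11, median log2 ratio 0.84) and 39.3 CPM in the vehicle members, and 72 of the 92 cells had over 5 UMIs of macrophage or erythroid markers. Their part in the values was not tested. Within the TAK-931 library the 11 cells, set against the 59, had lower S phase genes in 41 of 42 measured, with a median log2 ratio of -1.53, and lower G2/M genes in 40 of 41. Of all genes compared there, 5514 of 8315 were lower, with a median of -0.26. Rrm2 was at 21.6 against 187 CPM (12 UMIs in the 11 cells) and Mcm6 at 83.0 against 128 CPM. The ER translocation and folding list had a median of -0.23, near that of all genes there. H2-D1 was at 1903 against 1290 CPM and Ypel3 at 37.9 against 17.4 CPM. In both libraries, then, low-score cells had low S phase genes, with a lower ratio for Rrm2 than for Mcm6. H2-D1 and Ypel3 were above cells of middle score in both. The macrophage markers were above them in the TAK-931 library, while with vehicle their direction depended on a few cells, as given above. What macrophage transcripts added to the H2-D1 and Ypel3 values of the 11 cells was not tested.

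Among vehicle cells within a narrower range of depth, the S phase and ER values were close to those above. With only the cells whose total UMIs lay between the 25th and 75th percentiles of tumor cells (367 members with a median of 39887 UMIs and 829 middle-score cells with 42229), the S phase median was -1.33, the ER translocation and folding median -0.09, and 51 genes were higher and 474 lower by at least 1.5-fold. The direction of the ER stress list was not stable: its median was 0.02 in these cells and -0.03 in all.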

How the data were processed

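Droplet 3′ libraries (v3.1 chemistry) were made by the authors from 1 vehicle and 1 TAK-931 allograft. The deposited matrices hold raw UMI counts per gene and barcode, made with Cell Ranger 6.0.0 and the mouse build mm10 per the submitters' processing notes, without normalization. They list 32285 features. No doublet removal is named in the methods and none was applied. The members and gene lists were chosen with earlier results of these data known. UMIs were summed per score group, divided by the group's total (CPM) and compared as log2 ratios with exact conditional 95% intervals, for genes whose 2 sums reached 200 UMIs. Cells of 1 library allowed no test. The text names the 12 genes furthest up and the 12 furthest down with at least 30 CPM in the higher group, leaving out score, mitochondrial, ribosomal, haemoglobin and immunoglobulin variable genes and unnamed models, and for each list the extremes and members with a defining role. TAK-931 genes needed at least 20 UMIs. Alternatives changed the gate, score, comparison group, scaling and gene minimum. The ratio and its interval were run on simulated sums with counting error only. How the intervals hold under the spread between cells was not tested. Software versions were matplotlib 3.10.9, pandas 2.3.3, python 3.11.15, scipy 1.17.1 and numpy 2.4.6. Total depth was 144767193 UMIs (vehicle) and 77369283 UMIs (TAK-931), and intervals give counting precision only. Some genes of the lists are not reported here by name.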

Additional observations from a re-analysis of the deposited data

How the results depend on the processing

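The number of genes at least 1.5-fold higher in members (68) moved to 127 with the score taken from the other G2/M genes, 124 with the lowest 10% of the score as members, 146 against all other tumor cells, 117 with ratios centred on the median of all genes, 10 with a gene minimum of 1000 UMIs and 600 with a minimum of 20. The number lower (651) moved to 1004 against all other tumor cells, 337 with the minimum of 1000 UMIs and 1134 with that of 20. Fewer or more genes were compared at those minimums. The S phase median moved to -1.64 and the members' median UMIs to 75.7% in the comparison with all other tumor cells. That percentage was 94.5% among cells within the narrower range of total UMIs, by construction. Centring moved the ER translocation and folding median to -0.013 and the ER stress median to 0.042. In all, 78 of the 92 values of these summaries kept within their bounds. The S phase median stayed between -1.64 and -1.33 over 15 alternatives, and that of ER translocation and folding between -0.11 and -0.01, while that of ER stress took the opposite sign in 3. Tmsb4x changed direction, to -0.86 with over 1000 genes, -0.76 with no UMI of the 5 other-lineage genes, -0.88 with the thinned score and -1.27 without cells with over 5 macrophage or erythroid UMIs. The macrophage list's median (1.19) changed direction in 3 of these, to -0.23, -0.28 and -0.22, and the erythroid list's to 0.55 with over 1000 genes. The cause was not tested. With the thinned score the S phase median was -1.38. The other 23 named genes kept their direction under every alternative run. No paired analysis was possible because there was 1 library per group. Depth limits genes with few UMIs in members, such as Plk1, and the 11 TAK-931 cells.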
